A study of Rattus norvegicus with 9 samples.

Results

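Matrix metalloproteinases (Mmp), the membrane-bound Adam proteases, the secreted Adamts proteases and the Timp inhibitors were examined in the right ventricle of the rat. The genes were taken by name, as array features whose single gene symbol is Mmp, Adam, Adamts or Timp followed by a number, with 1 feature per gene. This gave 53 genes of the 14506 genes that have such a feature, of which 21 were Mmp, 17 Adam, 11 Adamts and 4 Timp genes. Where a gene had more than 1 feature, which was so for Adamts3, the brightest on average was used.

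The arrays came from right ventricles of male Sprague-Dawley rats in 3 groups. In the F+ and F- groups a band had been placed round the pulmonary artery (PAB) to load the right ventricle with pressure, and 4 weeks after the operation the fibrotic area was above 6.5% in F+ and below 6.5% in F-. The Sham group had the operation without banding. Each group had 3 arrays, the age of the rats was not given in the sources used here, and because the groups were divided by fibrotic area, F+ and F- are parts of one banded population that were sorted by outcome. No source says that the arrays of a group came from separate animals, and the methods speak of hybridizations in triplicate, so that all p-values rest on a spread between arrays that may be technical. The study asked which genes go with fibrosis as distinct from overload, so F+ was compared with F-, and each banded group with Sham.

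Matrix metalloproteinases are zinc enzymes that together cut most proteins of the extracellular matrix. They are made as inactive precursors and are held in check by the Timp proteins, which block the active site. Adam proteases sit in the cell membrane and release the outer parts of other membrane proteins, such as growth factors and cytokines, whereas Adamts proteases are secreted and cut procollagens and proteoglycans. In the heart the balance of these enzymes and inhibitors is studied as a control on how much collagen accumulates, and much of it is set after transcription, by activation of the precursors, which an mRNA array does not measure.

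The deposited values run from 1 to 190.4, with array medians between 33.4 and 33.9, and how they were scaled and normalized is not stated in any source used here. Log2 fold changes below are differences of mean log2 deposited values, and they hold on that scale only. The range would also fit squares of log2 intensities, so for the main genes the difference of square roots is given too, which would be a log2 fold change in that case. Levels of different genes cannot be set against each other on an array. The labelled tissue was checked with 10 cardiomyocyte markers, the dimmest of which lay at percentile 99.2 of all features by mean value. The arrays were not alike within groups: Nppb, the natriuretic peptide gene that overload raises, was 142.7, 138.0 and 137.4 in F+, 151.8, 98.5 and 101.8 in F-, and 100.2, 91.9 and 98.8 in Sham. F- array 1 thus lay with the F+ arrays, and for Nppa, the atrial natriuretic peptide gene, at 155.6 against 37.0 and 43.6 on the other F- arrays, while Sham array 2 was at 135.8 against 57.7 and 59.7 on the other Sham arrays. Ties left out, F- array 1 lay farthest from the mean of the other F- arrays for 44% of all features and 42.3% of the genes examined. Sham array 1 did so within Sham for 41.2% and 47.1%, and each F+ array within F+ for 31.2% to 34.9% of all features. In a bulk tissue, fewer cells of a type and less RNA per cell cannot be told apart.

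A group of the Mmp genes lies side by side in the genome, and many of its promoters hold the same pair of motifs. In RefSeq (rat genome GRCr8), Mmp13, Mmp12, Mmp1b, Mmp3, Mmp1, Mmp10, Mmp8, Mmp27, Mmp20 and Mmp7 follow each other on chromosome 8, and 9 of these are measured here. RefSeq promoters were matched for 33 of the 53 genes, and the 100 bases before each start were searched on both strands for TGANTCA, the motif bound by AP-1 factors, and for TATAAA, the TATA box. TGANTCA was found in 7 of the 33 (21.2%) against 2.47% of 33469 promoters, TATAAA in 11 (33.3%) against 5.78%, and both in 7 (21.2%) against 0.176%. The 7 with both, Mmp1, Mmp3, Mmp7, Mmp10, Mmp12, Mmp13 and Mmp20, all belong to the chromosome 8 neighbours. Of the other two measured there, Mmp8 has TATAAA alone and Mmp27 neither motif in this window. The windows of 4 of them, a macrophage elastase, a collagenase, a stromelysin and a matrilysin, are shown because their genes have different substrates and yet the same pair of motifs (capitals, TGANTCA first and TATAAA second), all on the plus strand of chromosome 8 in GRCr8.
Mmp12, chr8:12866552-12866651: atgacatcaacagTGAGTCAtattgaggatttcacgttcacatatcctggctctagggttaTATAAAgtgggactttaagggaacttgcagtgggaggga
Mmp13, chr8:12782729-12782828: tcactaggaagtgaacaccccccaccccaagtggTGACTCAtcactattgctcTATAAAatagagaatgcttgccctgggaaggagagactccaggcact
Mmp10, chr8:12974607-12974706: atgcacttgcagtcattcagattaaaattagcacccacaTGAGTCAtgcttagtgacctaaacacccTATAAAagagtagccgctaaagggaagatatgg
Mmp7, chr8:13132943-13133042: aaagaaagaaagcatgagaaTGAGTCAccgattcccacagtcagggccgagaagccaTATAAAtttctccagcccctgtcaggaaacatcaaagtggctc
TGANTCA begins 87 bases before the start in Mmp12, 66 in Mmp13, 61 in Mmp10 and 80 in Mmp7, and TATAAA begins 39, 47, 33 and 43 bases before it. A match of letters is a description of the window and does not show that a factor binds there.

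None of the 53 genes passed an adjusted p of 0.05 in any comparison (limma, Benjamini-Hochberg over 29215 features). Of all features, 0.00342% passed in F+ against F-, and 0% passed in either comparison with Sham. The smallest adjusted p of the 53 genes was 0.601 in F+ against F-, 0.743 in F- against Sham and 0.564 in F+ against Sham. On log2 deposited values none differed by over 1.5-fold in any comparison, against 0.154% of features higher and 0.26% lower by that much in F+ against F-, 0.411% and 0.144% in F- against Sham, and 0.305% and 0.157% in F+ against Sham. If square roots are read as log2 values, 1 of the 53 genes was over 1.5-fold higher in F+ than in F- (Timp1, against 0.791% of features) and 0 lower (against 0.657%). On that reading 1 was higher in F+ than in Sham (Timp1, against 1.25%) and 1 lower (Timp4, against 0.777%), and in F- against Sham 0 were higher (against 1.05%) and 0 lower (against 0.356%). As deposited, the highest of the 9 arrays was under 1.2 times the lowest in 36 of 53 genes. The values below are therefore descriptions of where the arrays lay, and counts at an unadjusted p under 0.05 serve only to order them.

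In F+ against F-, 6 of the 53 genes (11.3%) had an unadjusted limma p under 0.05, where 7.41% of all features did. Timp1, Mmp14, Adamts9 and Adam6 were higher in F+ (4 genes, 7.55%, against 3.65% of features) and Adam7 and Adam32 lower (2 genes, 3.77%, against 3.76%). The mean log2 value was higher in F+ for 37 genes and lower for 16, whereas 48.2% of all features were higher and 51.6% lower, and the median difference was 0.026 for the genes and -0.0023 for all features. In F- against Sham, 3 genes (5.66%) had such a p, against 6.03% of features, and all of them, Timp4, Adamts12 and Adamts14, were lower in F-, where 2.96% of features were lower and 3.07% higher with such a p. Here 19 genes were higher and 34 lower, against 48.2% and 51.7% of features, with a median difference of -0.018. In F+ against Sham, 7 genes (13.2%) had such a p, against 7.4% of features, with Timp1, Adam17, Adam9 and Mmp12 higher in F+ (against 3.5% of features) and Timp4, Adamts12 and Adamts7 lower (against 3.9%). In this last comparison 27 genes were higher and 26 lower, against 47.5% and 52.4% of features, with a median difference of 0.0055. On square roots of the values, 8, 2 and 8 of the 53 genes had such a p in F+ against F-, F- against Sham and F+ against Sham, where 8.17%, 6.74% and 8.16% of features did. The comparisons share arrays, so their results are not independent.

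**Figure D1:**
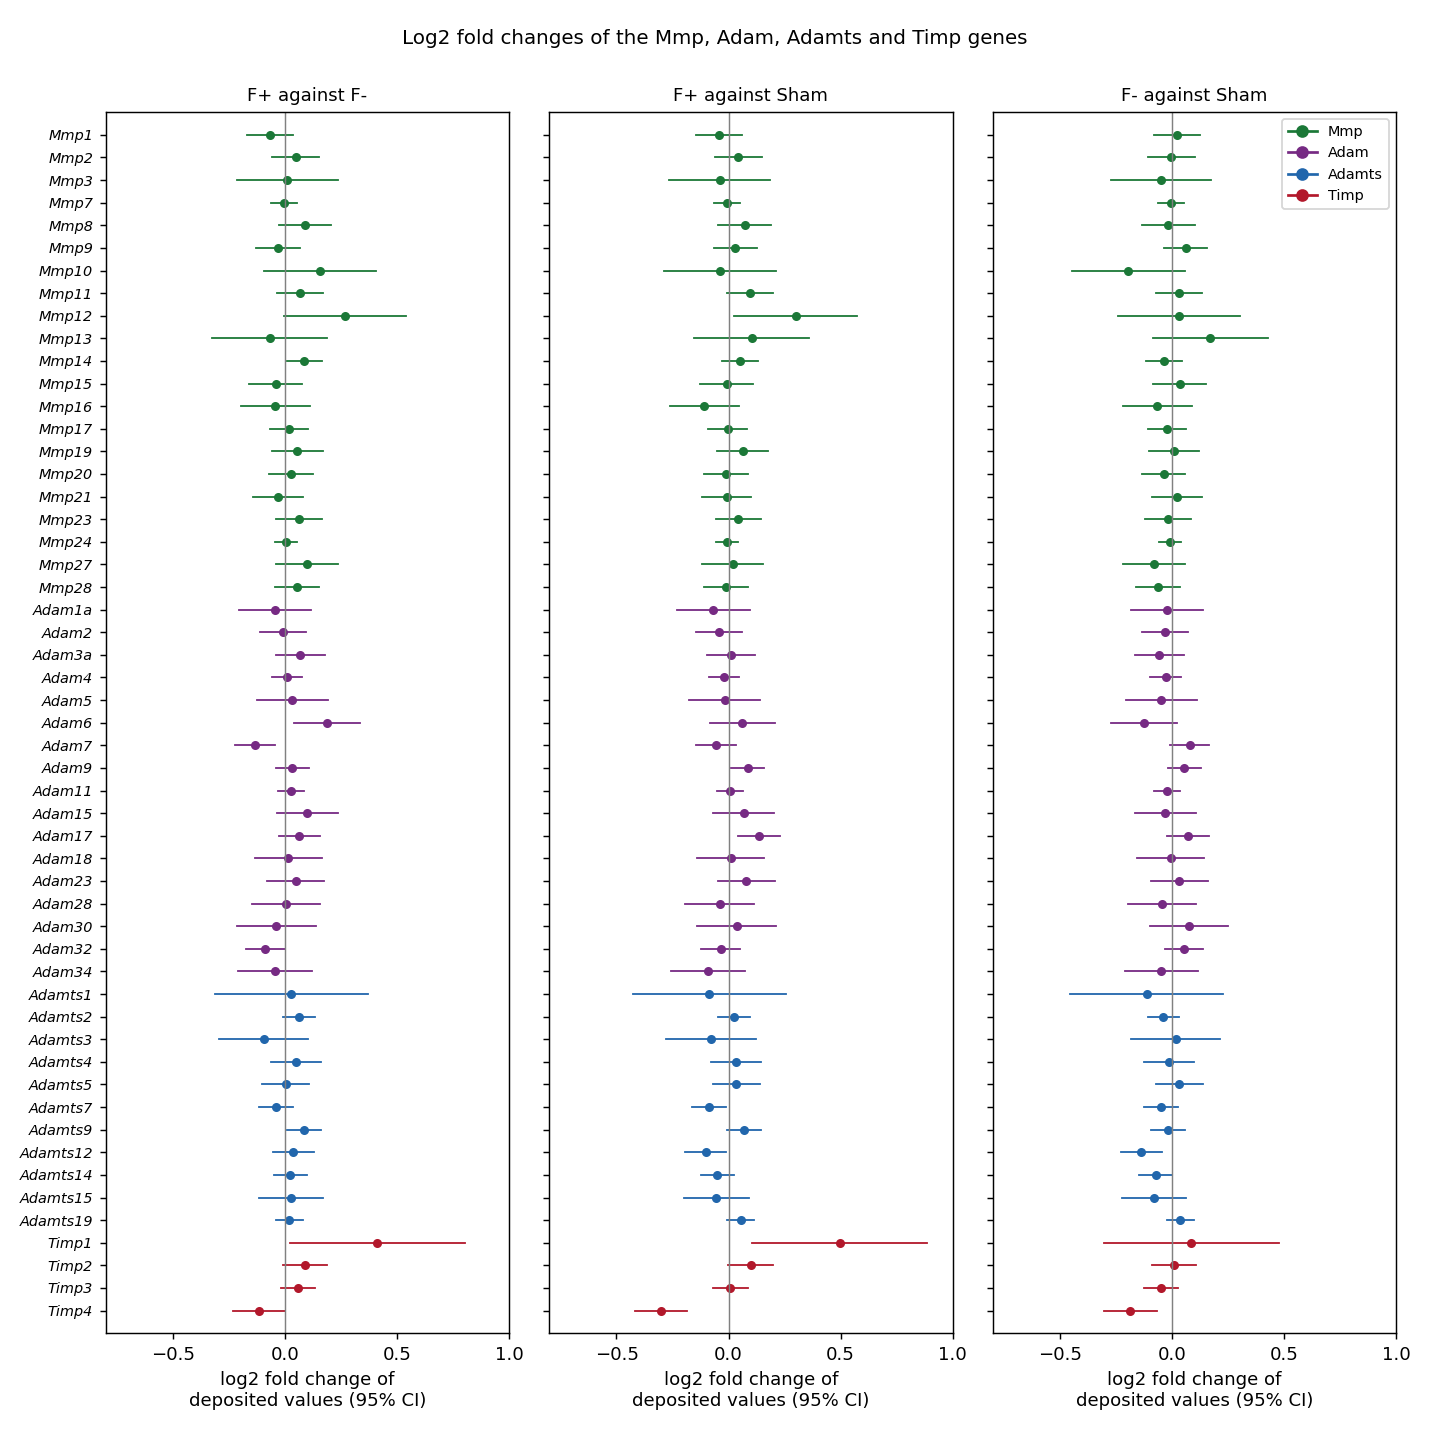
Log2 fold changes of deposited values (horizontal axes) of all 53 genes (rows, by family) in F+ against F-, F+ against Sham and F- against Sham, each with its 95% confidence interval from limma. The widest departures are those of Timp1, at 0.41 in F+ against F- and 0.50 in F+ against Sham, and of Timp4, at -0.30 in F+ against Sham. Mmp12 comes next, at 0.30 in F+ against Sham.

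In F+ against Sham the largest increase and the largest decrease of the 53 genes were those of 2 Timp genes, Timp1 and Timp4. On log2 values in F+ against F-, Timp1 also had the largest increase, but Adam7 had the largest decrease, at -0.13. Timp1 (feature 10936482), a secreted inhibitor of many metalloproteinases, had values of 96.4, 105.6 and 100.3 in F+, 102.8, 66.0 and 64.0 in F-, and 69.2, 67.6 and 77.7 in Sham. All 3 F+ arrays lay above all Sham arrays, whereas F- array 1 lay among the F+ arrays and the other F- arrays below the Sham ones. The means were 100.8 ± 4.62 in F+, 77.6 ± 21.8 in F- and 71.5 ± 5.43 in Sham (SD, n = 3 each). Timp1 was 1.33-fold higher in F+ than in F- (log2 fold change 0.41, SE 0.17, 95% CI 0.02 to 0.80, limma adjusted p = 0.671) and 1.41-fold higher than in Sham (0.50, 95% CI 0.11 to 0.89, limma adjusted p = 0.626). As square roots these differences were 1.28 and 1.58. The difference of F- from Sham was 0.086 (95% CI -0.30 to 0.48, limma adjusted p = 0.906). Two-sided exact permutation p-values were 0.3 for F+ against F- and 0.1 for F+ against Sham, and 0.1 is the smallest that 3 arrays against 3 can give.

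Without F- array 1, Timp1 differed by 0.63 between F+ and F- (limma adjusted p = 0.0725) and F- lay below Sham by a log2 difference of -0.13 (limma adjusted p = 0.889). That adjusted p was the smallest among the 30 single-gene results, each 1 gene in 1 comparison, that were followed through the settings. Without F- array 2 the difference was 0.31 and without F- array 3 it was 0.29 (limma adjusted p = 0.901).

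Timp4 (feature 10864732), the Timp known for its abundance in heart, was lowest in F+. Its values were 53.6, 51.5 and 55.1 in F+, 53.6, 59.9 and 60.2 in F-, and 67.5, 64.4 and 65.5 in Sham. Every F+ and every F- array lay below every Sham array, and F- array 1 lay among the F+ arrays. The means were 53.4 ± 1.81 in F+, 57.9 ± 3.73 in F- and 65.8 ± 1.57 in Sham (SD, n = 3 each). F+ was below Sham by a log2 fold change of -0.30 (SE 0.051, 95% CI -0.42 to -0.18, limma adjusted p = 0.564), or -0.80 as square roots. F- was below Sham by -0.19 (95% CI -0.30 to -0.069, limma adjusted p = 0.743). In F- against Sham 0.743 was the smallest adjusted p of all features, and several genes share it, so it does not order them. Timp4 and Mmp10 both have it, with unadjusted limma p-values of 0.0065 and 0.11. For Timp4 the difference of F+ from F- was -0.12 (limma adjusted p = 0.674) and was -0.17 without F- array 1 (limma adjusted p = 0.186). With each array left out in turn, F+ against Sham ran from -0.32 to -0.28.

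Timp2, which inhibits metalloproteinases and also helps Mmp14 to activate the Mmp2 precursor, had values of 102.2, 102.5 and 100.0 in F+, 99.2, 93.3 and 93.8 in F-, and 89.4, 97.0 and 98.4 in Sham. The F+ arrays lay above all F- and all Sham arrays, by a log2 fold change of 0.090 from F- (limma adjusted p = 0.680) and of 0.099 from Sham (limma adjusted p = 0.670). Timp3, which binds to the matrix and also inhibits Adam17, had 104.9, 99.2 and 102.1 in F+, 95.6, 98.1 and 100.7 in F-, and 99.2, 101.6 and 103.6 in Sham. Its groups overlapped in every comparison, and the differences were 0.057 in F+ against F- and -0.048 in F- against Sham.

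**Figure D2:**
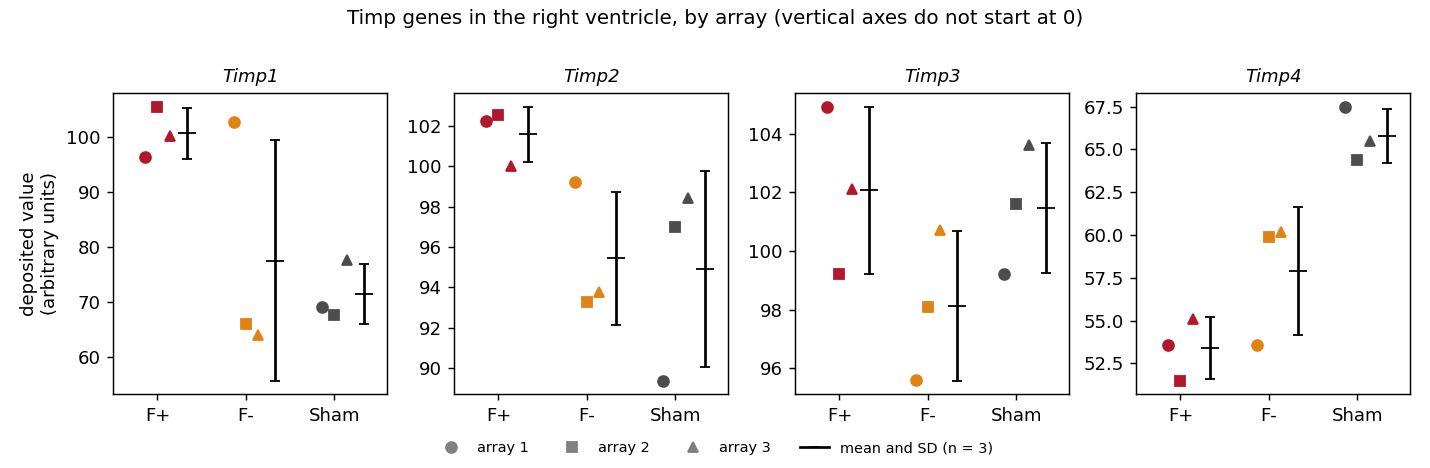
Deposited values (vertical axes, arbitrary units, not from 0) of Timp1, Timp2, Timp3 and Timp4 on each array of the F+, F- and Sham groups, with the mean and SD of 3 arrays. F- array 1 (circle) lies with the F+ arrays for Timp1 and Timp4, and the Timp4 values of both banded groups lie below the 64.4 of the lowest Sham array.

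Among the Mmp genes, 11 of 21 belonged to the dimmest 33.3% of features, where the spread within a group is widest, with a median SD of 0.107 against 0.0423 in the brightest 33.3% (log2). The gelatinases, which cut denatured collagen and basement membrane collagen, differed little. Mmp2, the brighter feature, had 94.4, 102.0 and 105.1 in F+, 94.8, 98.5 and 98.0 in F-, and 98.5, 99.9 and 93.8 in Sham, with a log2 fold change of 0.048 in F+ against F- (limma adjusted p = 0.811). Mmp9, which is dim here, had 25.0, 24.6 and 23.8 in F+, 24.5, 24.6 and 25.9 in F-, and 24.6, 22.7 and 24.6 in Sham. Both genes overlapped in every comparison.

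The membrane-type Mmp14, which cuts collagen at the cell surface and activates the Mmp2 precursor, had 50.0, 53.6 and 52.4 in F+, 49.5, 50.0 and 47.4 in F-, and 49.7, 50.0 and 50.8 in Sham. F+ lay above F- by a log2 fold change of 0.086 (95% CI 0.0069 to 0.17, limma adjusted p = 0.671), and 1 F+ array equalled the highest F- array. The other 4 membrane-type genes, Mmp15, Mmp16, Mmp17 and Mmp24, had no unadjusted p under 0.05, and Mmp16 had the lowest fold change of all Mmp genes in F+ against Sham, at -0.11 (limma adjusted p = 0.728).

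Mmp12, the macrophage elastase, had 27.9, 25.9 and 25.0 in F+, 25.8, 18.4 and 21.8 in F-, and 19.9, 21.0 and 23.2 in Sham. All F+ arrays lay above all Sham arrays, and F- array 1 again lay among the F+ arrays. The log2 fold change was 0.27 in F+ against F- (limma adjusted p = 0.674) and 0.30 in F+ against Sham (limma adjusted p = 0.655). F+ against F- gave 0.39 without F- array 1 and 0.15 without F- array 2. Mmp12 lay at percentile 29.8 of all features by mean value, so it is dim.

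The chromosome 8 neighbours, Mmp12 included, were all dim, 9 of 9 being in the dimmest 33.3%, and did not share a direction. In F+ against F-, 6 of them had a higher mean and 3 a lower one, with a median of 0.026, and none had an unadjusted p under 0.05. Mmp3, the stromelysin that cuts many matrix proteins, had 19.0, 19.0 and 19.0 in F+, 18.5, 19.1 and 19.0 in F-, and 23.4, 17.6 and 18.1 in Sham, so that Sham array 1 alone stood apart. The collagenases Mmp1, Mmp8 and Mmp13 had log2 fold changes of -0.067, 0.088 and -0.067 in F+ against F-, and Mmp7, the matrilysin, one of -0.0027. Mmp10, which also cuts many matrix proteins, had 10.7, 13.0 and 9.9 in F- and 12.4, 11.8 and 14.1 in Sham. Its log2 fold change in F- against Sham, -0.19 (limma adjusted p = 0.743), was the largest decrease of the 53 genes there, whereas square roots put Timp4 first. Mmp13 had 15.7, 11.4 and 13.3 in F- and 11.3, 12.1 and 12.2 in Sham. Its log2 fold change, 0.17 (limma adjusted p = 0.752), was the largest increase there, whereas square roots put Timp1 first. For Mmp10 and Mmp13 the F- and Sham arrays overlapped.

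Of the Adam genes with a catalytic site that are expressed outside the germ line, 4 were measured, and 3 of these lay above Sham in F+ without overlap. Adam17, which releases tumour necrosis factor and ligands of the EGF receptor, had 71.0, 71.9 and 75.4 in F+, 71.9, 69.0 and 67.9 in F-, and 64.2, 69.1 and 65.4 in Sham. The F+ arrays lay above all Sham arrays, by a log2 fold change of 0.14 (95% CI 0.04 to 0.23, limma adjusted p = 0.616), and the F- arrays overlapped with both. Adam9, which also releases membrane proteins, had 77.8, 79.1 and 79.3 in F+, 79.5, 73.9 and 77.8 in F-, and 73.0, 74.9 and 74.6 in Sham, with 0.086 in F+ against Sham (limma adjusted p = 0.633). Adam15, a protease that also binds integrins, had 59.4, 56.2 and 58.5 in F+, 59.9, 51.1 and 51.9 in F-, and 55.1, 55.1 and 55.8 in Sham, and F- array 1 was its highest array. Over all features, 5.69% lay without overlap above Sham in F+, against 7 of the 53 genes (13.2%), which were Adam15, Adam17, Adam9, Adamts19, Mmp12, Timp1 and Timp2.

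Another 11 Adam genes are known from testis and epididymis, and 9 of them were in the dimmest 33.3%. Adam6, Adam7 and Adam32, which had an unadjusted p under 0.05 in F+ against F-, are all among these 9. Adam7 had 13.0, 12.2 and 12.6 in F+, 13.8, 14.4 and 13.3 in F-, and 12.9, 13.4 and 13.0 in Sham, with a log2 fold change of -0.13 (limma adjusted p = 0.601) in F+ against F-. It was the only gene of the 53 whose F+ arrays all lay below the F- arrays (1.89%, against 5.28% of features). Adam6 had 0.19 (limma adjusted p = 0.635) and Adam32 -0.087 (limma adjusted p = 0.672). Adam32 lies next to Adam9 on chromosome 16 in RefSeq, followed by Adam5, Adam3a and Adam18. The log2 fold changes in F+ against Sham were 0.086 for Adam9, -0.034 for Adam32, -0.017 for Adam5, 0.011 for Adam3a and 0.0096 for Adam18. The genes of nerve tissue without a catalytic site, Adam11 and Adam23, differed by 0.027 and 0.047 in F+ against F-.

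**Figure D3:**
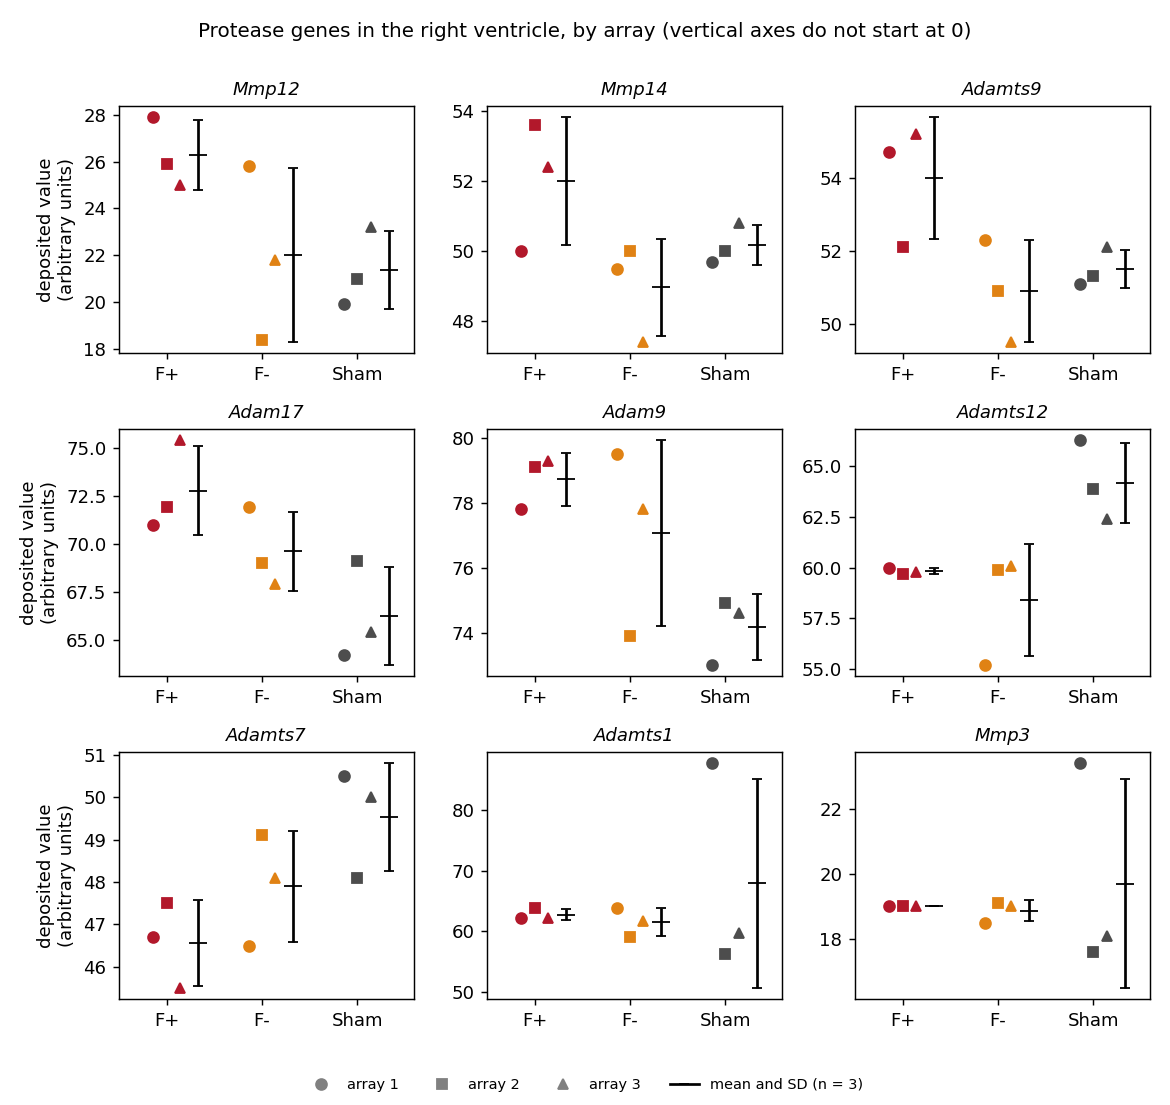
Deposited values (vertical axes, arbitrary units, not from 0) of Mmp12, Mmp14, Adamts9, Adam17, Adam9, Adamts12, Adamts7, Adamts1 and Mmp3 on each array of the F+, F- and Sham groups, with the mean and SD of 3 arrays. Sham array 1 (circle) alone is high for Adamts1, at 87.7, and for Mmp3, at 23.4.

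The Adamts genes were brighter, with none of 11 in the dimmest 33.3%. Adamts12 and Adamts7, both known in human to cut the cartilage protein Comp, had lower means in both banded groups than in Sham. Adamts12 had 60.0, 59.7 and 59.8 in F+, 55.2, 59.9 and 60.1 in F-, and 66.3, 63.9 and 62.4 in Sham, so that all banded arrays lay below all Sham arrays. Its log2 fold change was -0.14 in F- against Sham (limma adjusted p = 0.743) and -0.10 in F+ against Sham (limma adjusted p = 0.655). Adamts7 had 46.7, 47.5 and 45.5 in F+, 46.5, 49.1 and 48.1 in F-, and 50.5, 48.1 and 50.0 in Sham, with -0.089 in F+ against Sham (limma adjusted p = 0.633), whereas F- overlapped with Sham, at -0.048. Adamts12 and Timp4 were the genes of the 53 that lay below Sham without overlap in F- (3.77%, against 4.64% of features), where 0 genes lay above Sham without overlap (against 5.15% of features), and they were among the 4 that did so in F+ (7.55%, against 6.56% of features), with Adamts7 and Adamts14.

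The procollagen N-proteinases, which trim the amino end of fibrillar procollagens, are Adamts2, Adamts3 and Adamts14. Adamts2 had 67.5, 70.9 and 67.5 in F+, 66.9, 65.6 and 64.6 in F-, and 66.1, 67.8 and 68.5 in Sham, so that F+ lay above F- without overlap, by a log2 fold change of 0.063 (limma adjusted p = 0.683). Adamts2, Adamts19 and Timp2 were the 3 genes (5.66%, against 4.46% of features) whose F+ arrays all lay above the F- arrays. Adamts19, whose substrates are not well known, differed there by only 0.018. Adamts14 lay below Sham in F- by -0.074 (limma adjusted p = 0.743), with 25.8, 27.2 and 25.6 in F- and 27.0, 28.2 and 27.5 in Sham. Adamts3 had 28.4, 29.6 and 27.8 in F+ and 27.2, 34.2 and 30.6 in F-, a difference of -0.095 (limma adjusted p = 0.804), and its other feature gave -0.08.

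The proteoglycanases Adamts1, Adamts4, Adamts5, Adamts9 and Adamts15, which cut versican and aggrecan, all had a higher mean in F+ than in F-, by 0.0028 to 0.085 and with a median of 0.028. So did 37 of the 53 genes and 48.2% of all features. In F- against Sham 1 of the 5 was higher and 4 lower, and in F+ against Sham 3 were higher and 2 lower. Between F+ and F-, Adamts9 differed most, by a log2 fold change of 0.085 (limma adjusted p = 0.668). Its values were 54.7, 52.1 and 55.2 in F+, 52.3, 50.9 and 49.5 in F-, and 51.1, 51.3 and 52.1 in Sham. Adamts1 had 62.2, 63.8 and 62.2 in F+, 63.8, 59.1 and 61.8 in F-, and 87.7, 56.3 and 59.7 in Sham, with Sham array 1 far above the rest. Adamts1 and Adamts5 are neighbours on chromosome 11 in RefSeq, and Adamts5 had 49.6 on Sham array 1, against 49.9 and 49.7 on the other Sham arrays. Adamts4 had 30.8, 32.3 and 30.8 in F+, and 30.6, 31.3 and 28.9 in F-, and the groups overlapped.

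**Figure D4:**
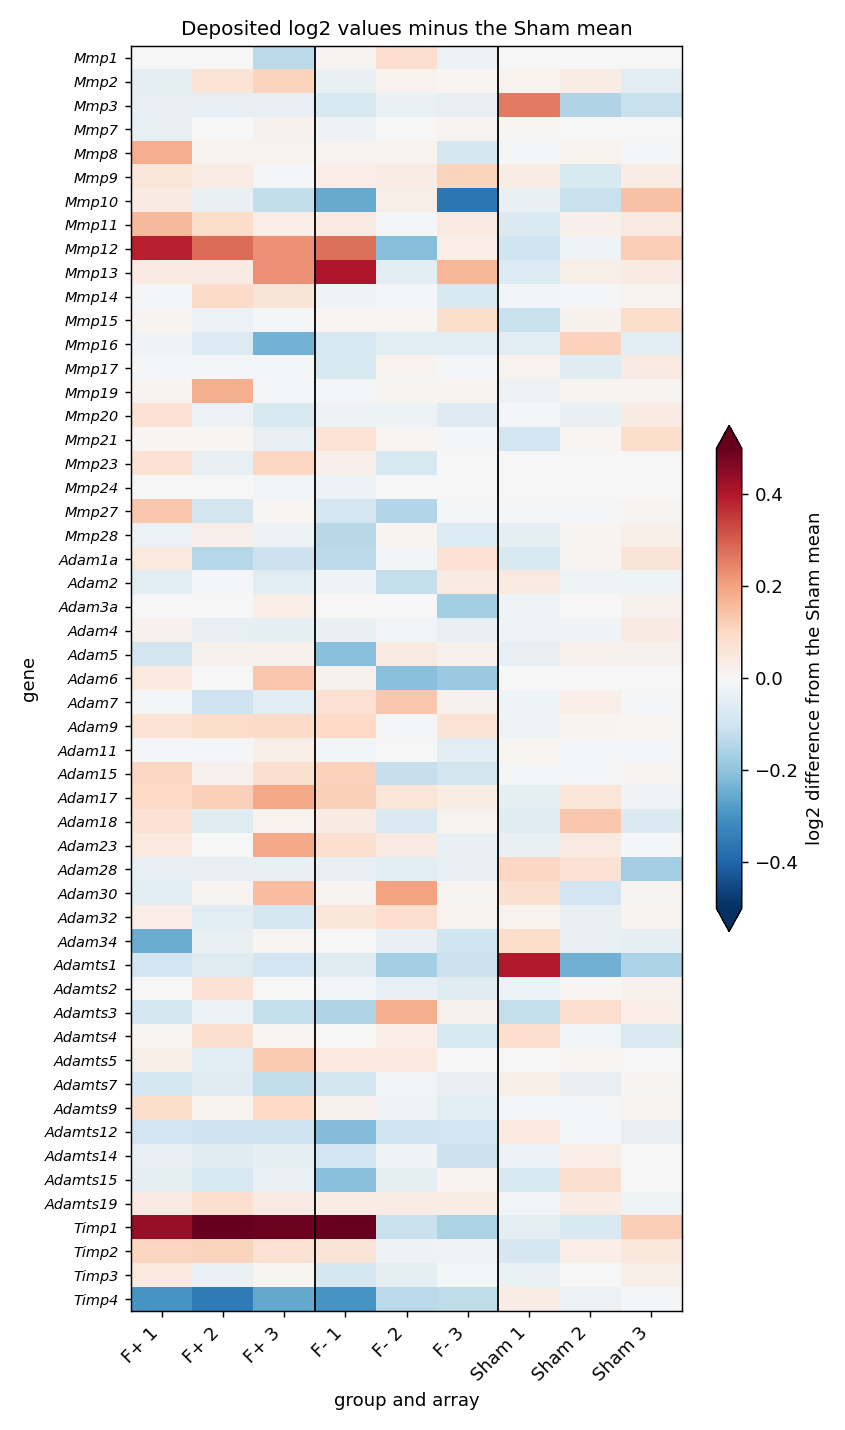
Log2 deposited value minus the mean of the 3 Sham arrays for the 53 genes (rows, by family) on each array of F+, F- and Sham (columns), with colours limited to -0.5 and 0.5. Most cells are pale, and the Timp1 and Mmp12 cells of F- array 1 have the colour of the F+ arrays.

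Genes that act with these proteases were taken as lists. Of the regulators outside the Timp family, 16 of 18 were measured, and 13 had a higher and 3 a lower mean in F+ than in F- (median 0.024), with 1 at an unadjusted p under 0.05, where 7.41% of all features had one. This was Plat, the tissue plasminogen activator, with 93.0, 90.9 and 91.4 in F+, 86.6, 68.9 and 75.2 in F-, and 94.0, 81.5 and 83.9 in Sham (log2 fold change 0.26, limma adjusted p = 0.635). Serpine2, an inhibitor of plasminogen activators and thrombin, was the 1 gene of this list with such a p in F+ against Sham, where 7.4% of all features had one. Its log2 fold change there was 0.33 (limma adjusted p = 0.605). It had 60.8, 64.5 and 68.2 in F+, 67.8, 56.2 and 52.9 in F-, and 50.4, 49.7 and 54.0 in Sham. In F- against Sham 5 of the 16 regulators were higher and 11 lower, and in F+ against Sham 11 were higher and 5 lower. Of the procollagen processing and Adamts-like genes, 8 of 13 were measured. In F+ against F-, 6 were higher and 1 lower (median 0.036), against 48.2% and 51.6% of all features. Tll1, a procollagen C-proteinase, lay above F- in F+ by 0.12 (limma adjusted p = 0.640) and differed from Sham in F- by -0.12 (limma adjusted p = 0.743).

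The matrix proteins that these enzymes cut, 11 of 13 measured, all had a higher mean in F+ than in F- (median 0.061), where 48.2% of all features did. None had an unadjusted p under 0.05 in that comparison, where 7.41% of all features had one. In F- against Sham 4 were higher and 7 lower (median -0.018), and in F+ against Sham 8 were higher and 3 lower (median 0.048). Fn1, fibronectin, differed by 0.23 in F+ against F- (limma adjusted p = 0.674), with 82.2, 96.6 and 92.2 in F+, 89.7, 69.1 and 73.7 in F-, and 77.6, 79.1 and 83.5 in Sham. Vcan, the proteoglycan versican, lay above Sham in F+ by 0.24 (limma adjusted p = 0.604), with 64.7, 72.8 and 72.3 in F+, 69.6, 60.8 and 60.2 in F-, and 58.5, 60.3 and 58.5 in Sham. F- array 1 was the highest F- array for both.

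The substrates that Adam proteases release from the membrane, together with their cofactors, were measured for 22 of 25 genes. In F+ against F-, 18 had a higher and 4 a lower mean (median 0.049), against 48.2% of all features higher. An unadjusted p under 0.05 was found for 8, all higher in F+, where 3.65% of all features were higher with such a p. In F- against Sham 6 were higher and 16 lower (median -0.029), against 51.7% of all features lower. In F+ against Sham 18 were higher and 4 lower (median 0.035), with 2 higher at such a p, against 3.5% of all features. Cx3cl1, the membrane-bound chemokine fractalkine, had 68.1, 64.7 and 64.7 in F+, 60.4, 58.3 and 56.2 in F-, and 60.9, 58.8 and 61.0 in Sham (log2 fold change in F+ against F- 0.18, limma adjusted p = 0.481). Jag1, a Notch ligand, had 61.7, 61.4 and 62.5 in F+, 57.2, 55.1 and 55.7 in F-, and 57.4, 57.4 and 54.0 in Sham (0.14, limma adjusted p = 0.492). For both genes all F+ arrays lay above all F- and Sham arrays, as they did for App and Tgfa of this list. Of all features, 4.46% lay above F- and 5.69% above Sham without overlap in F+, and the share that did both was not counted. None of the genes in these lists passed an adjusted p of 0.05 in any comparison (limma).

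Markers of other cell types were set beside these values. All 10 macrophage markers had a higher mean in F+ than in F- (median log2 difference 0.23), where 48.2% of all features did, and 5 of them had an unadjusted p under 0.05, where 3.65% of all features were higher with such a p. Their summed values ran from 616.5 to 667.3 in F+, from 501.3 to 614.9 in F- and from 521.3 to 549.5 in Sham. The 614.9 is that of F- array 1, which lay below every F+ array and above every Sham array. None of them was near 0, the lowest being at percentile 54.9 of all features. Fibroblast markers, of which 7 of 10 were higher in F+ than in F-, summed to between 851 and 924.8 in F+, 837.7 and 898.4 in F-, and 832.5 and 876.8 in Sham, which overlap. The cardiomyocyte markers summed to between 1520.9 and 1543.7 in F+, 1543.5 and 1561.2 in F-, and 1522.9 and 1551.1 in Sham. Of these 10 markers 9 had a lower mean in F+ than in F-, where 51.6% of all features did. An unadjusted p under 0.05 was found for 1, where 3.76% of all features were lower with such a p. In F+ against Sham 8 had a lower mean, against 52.4% of all features. All 7 smooth muscle and pericyte markers were higher in F+ than in F- (median 0.099), where 48.2% of all features were. So were 6 of 7 mast cell markers (0.11) and 4 of 4 red cell markers (0.75), 2 of which are in the dimmest 33.3%. In F- against Sham, 7 smooth muscle, 5 mast cell and 4 red cell markers were lower (medians -0.049, -0.022 and -0.17), against 51.7% of all features. In F+ against Sham, 6, 6 and 4 were higher (medians 0.043, 0.093 and 0.56), against 47.5%. Other lists did not share a direction in F+ against F-. Of the neutrophil markers 4 were higher and 4 lower, of the endothelial markers 4 higher and 2 lower, and of the atrial markers 1 higher and 2 lower. On Sham array 2 the atrial markers, Nppa included, summed to 400.8, against 200 and 195.8 on the other Sham arrays. The part of these cell types in the results above was not tested.

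**Figure D5:**
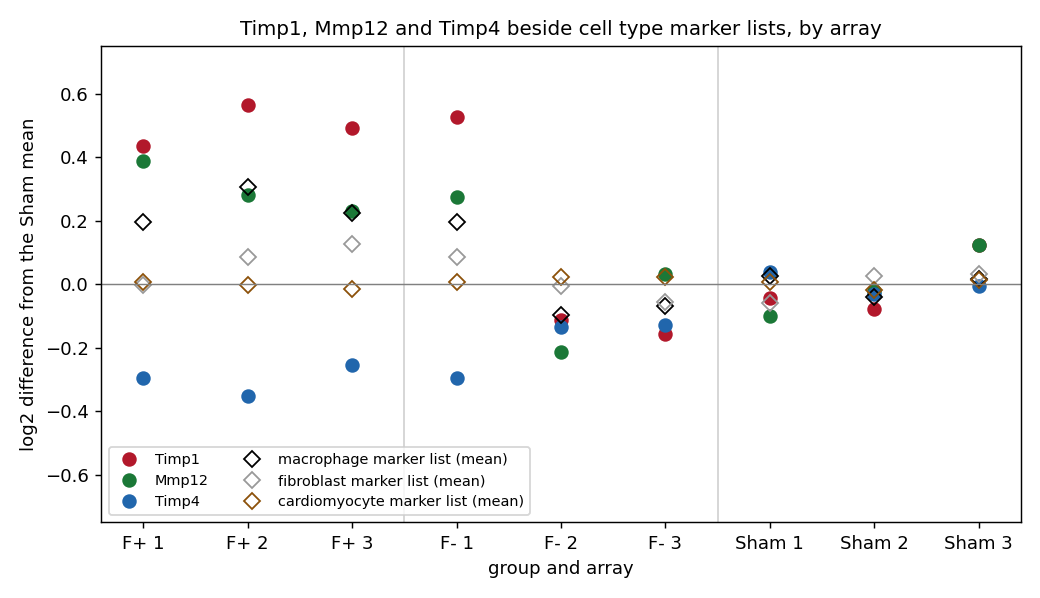
Log2 deposited value minus the Sham mean (vertical axis) of Timp1, Mmp12 and Timp4 (filled circles) and mean over the macrophage, fibroblast and cardiomyocyte marker lists (open diamonds) on each array of F+, F- and Sham. On F- array 1 the macrophage list lies at 0.20, beside 0.20 to 0.30 on the F+ arrays, and on the other F- arrays at -0.098 and -0.068.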

How the data were processed

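The values are a score per feature and array, scanned from 9 Affymetrix Rat Gene 1.0 ST arrays and processed by the authors before they were deposited. The software, summarization, normalization and scale of this processing were not stated in any source used here. TRIzol and sense-strand cDNA are named in the methods, but Sepasol and biotinylated cRNA in the sample records. Of all features, 200 were copies of another in every array, and 0 of the 53 genes were among them.

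Gene symbols came from the platform annotation. Of 29215 features, 15310 had 1 symbol, 323 had several and the rest were not listed. All 53 genes matched RefSeq (rat assembly GRCr8) by gene ID. RefSeq holds 75 names of this kind, and 22 of them, Adam8, Adam10, Adam12, Adam19 and Adamts8 included, were not analysed here.

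In R 4.3.3, limma 3.58.1 (lmFit, eBayes) was run on log2 values of the whole table, giving each group 1 mean over its 3 arrays. Benjamini-Hochberg adjustment was made within each comparison over all features, with a threshold of 0.05. No detection calls were used. The precision is limited by having 3 arrays per group and, among dim features, by a wider spread within groups. The procedure was tested on simulated data. Genes named were a fixed core of 21 (16 measured), those with an unadjusted p under 0.05 and the 3 with the largest increase and decrease in each comparison. Further genes were named for their place in the genome, for arrays without overlap or as examples after their values were seen. The members and lists were chosen with earlier results of these data known. Promoters came from RefSeq (GRCr8). Figures used matplotlib 3.10.9 under Python 3.11.15. The alternatives were other normalizations, filters, scales, fits and arrays left out.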

Additional observations from a re-analysis of the deposited data

How the results depend on the processing

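In each of the 20 alternative settings 0 of the 53 genes passed an adjusted p of 0.05 in any comparison (limma). Among the 30 single-gene results followed through the settings, the smallest adjusted p was 0.0725 (limma). The median log2 difference of the 53 genes in F+ against F-, 0.026 as reported, was 0.034 without the dimmest 33.3% of features (32 genes left), 0.044 with square roots of the values, 0.018 without Sham array 2 and F- array 1, and 0.018 to 0.032 with each array left out in turn. In F- against Sham (-0.018) it was -0.0089 with median centring, -0.038 with square roots and -0.028 to -0.012 with each array left out. In F+ against Sham (0.0055) it was 0.016 without the dimmest 33.3%, -0.0042 without Sham array 2 and F- array 1, and -0.0042 to 0.019 with each array left out, so its sign is not settled. The number of genes at an unadjusted p under 0.05 ran, with each array left out, from 2 to 10 in F+ against F-, from 2 to 7 in F- against Sham and from 4 to 9 in F+ against Sham. In F+ against F- it was 10 without F- array 1, 3 without F- array 2 or Sham array 2, and 2 without F- array 3 or F+ array 3. In F- against Sham it was 7 without F- array 2, and in F+ against Sham it was 4 without F+ array 2 or Sham array 1.

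Small differences changed sign. Timp2 in F- against Sham was -0.0046 with quantile normalization, -0.0037 without Sham array 2 and F- array 1, and -0.034 to 0.035 with each array left out. Timp1 in F- against Sham was -0.17 without Sham array 2 and F- array 1 (limma adjusted p = 0.817), and -0.13 to 0.21 with each array left out. Its sign changed only in the settings without F- array 1. Timp3 in F+ against Sham was -0.012 to 0.029. The cause was not tested.

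Whether replicate numbers pair the arrays cannot be settled here, because the 3 deviations from a group mean sum to 0 and so constrain each other. Deviations of same-numbered arrays correlated at -0.21, -0.19 and -0.033 in F+ and F-, and at -0.12 to 0.053 in the other pairs of groups. Those of differently numbered F+ and F- arrays correlated at -0.087 to 0.26. With the replicate number as a block, 0 genes passed in any comparison, and 2 in F+ against F- and 4 in F+ against Sham had an unadjusted p under 0.05, against 6 and 7 without it.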
